A study of Mus musculus with 2 samples.

Results

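Villin and the brush border cytoskeleton were followed through 10 genes (Vil1, Myo1a, Ezr, Espn, Cdhr2, Cdhr5, Krt8, Krt18, Krt19 and Krt20), taken by gene symbol from the 55357 gene rows of single-cell libraries of mouse small intestinal epithelium. Each symbol matched 1 row. Levels are given as UMIs (unique molecular identifiers, each marking 1 captured transcript molecule) per 1000000 UMIs of the same cells, abbreviated CPM, by cell type and by position from the bottom to the tip of the villus.

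Epithelium, enriched for crypts according to the study, was taken from control Adipfl/fl mice, in which the adiponectin gene carries loxP sites, and from Adipfl/flpVilli-CreT mice. The latter carry the same floxed gene together with a Cre recombinase driven by the villin promoter, so that adiponectin is deleted in gut epithelial cells. Of the cells kept below, 2.67% (control) and 3.89% (knockout) were crypt-like. The floxed allele was thus shared by both groups, and the control mice were without the Cre transgene according to the genotype label. Per the study, the animals were 8-week-old male littermates and the cells of a genotype were pooled. With 1 library per genotype there was no replicate, no test between the genotypes was possible, and every interval below is a 95% interval for counting error alone. What the final T of the Cre label stands for and whether an inducer was given are not stated in the sources used here.

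The brush border is the carpet of microvilli on the apical surface of absorptive enterocytes, the cells that take up nutrients. Each microvillus holds a core of parallel actin filaments that villin and espin cross-link, that myosin 1a ties to the surrounding membrane, and that ezrin anchors to membrane proteins, while the protocadherins CDHR2 and CDHR5 join the tips of neighbouring microvilli. Below the microvilli, the keratin network of simple epithelia supports the cell, built from pairs of the type II keratin 8 with a type I keratin, here keratin 18, 19 or 20. Enterocytes are born in the crypt and move up the villus as they mature, and they are shed at its tip. The villin promoter is widely used to express Cre throughout the intestinal epithelium, so the Vil1 transcript shows in which cells the endogenous promoter was active.

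In the GRCm38 build (mm10, GENCODE M21), Vil1 (ENSMUSG00000026175) lies on chromosome 1 from 74409376 to 74435559, and Myo1a (ENSMUSG00000025401) on chromosome 10 from 127705170 to 127720940, both on the plus strand. Ezr (ENSMUSG00000052397) lies on chromosome 17 from 6738041 to 6782784 and Espn (ENSMUSG00000028943) on chromosome 4 from 152120331 to 152152371, both on the minus strand. Cdhr2 (ENSMUSG00000034918) lies on chromosome 13 from 54701461 to 54736662 on the plus strand, and Cdhr5 (ENSMUSG00000025497) on chromosome 7 from 141269083 to 141276786 on the minus strand. Krt8 (ENSMUSG00000049382, chromosome 15, 101996698 to 102004482, minus strand) and its partner Krt18 (ENSMUSG00000023043, 102028180 to 102032027, plus strand) are neighbours with 23697 bases between them. Krt20 (ENSMUSG00000035775, 99428403 to 99438150) and Krt19 (ENSMUSG00000020911, 100140810 to 100148665) lie on chromosome 11 on the minus strand. The pseudogene Krt8-ps, which can share reads with Krt8, was counted separately and held 78 UMIs in the control library and 95 in the knockout library.

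Promoters of RefSeq (GRCm38.p6) were at hand for 9 of the 10 genes, not for Krt19, and Espn had 3 of the 11. In the 250 bases before each start, both strands were searched for TTTAT and TTTAC, the core letters bound by the intestinal factor CDX2, for CAAAGTNCA, bound by the enterocyte factor HNF4A, and for the TATA box letters TATAAA. 3 of these windows are shown, that of Vil1 because its promoter drives the Cre, and those of Krt20 and Cdhr5 because their transcripts were higher toward the villus tip and their windows hold matches near the start. They run 5′ to 3′ on the strand of the gene, and capitals mark the matches.
Vil1, chr1:74409134-74409383, plus strand: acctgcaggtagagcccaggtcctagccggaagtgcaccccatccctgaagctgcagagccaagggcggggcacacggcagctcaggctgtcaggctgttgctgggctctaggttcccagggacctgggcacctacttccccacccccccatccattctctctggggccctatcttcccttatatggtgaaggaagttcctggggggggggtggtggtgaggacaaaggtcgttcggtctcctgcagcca
Krt20, chr11:99438154-99438403, minus strand: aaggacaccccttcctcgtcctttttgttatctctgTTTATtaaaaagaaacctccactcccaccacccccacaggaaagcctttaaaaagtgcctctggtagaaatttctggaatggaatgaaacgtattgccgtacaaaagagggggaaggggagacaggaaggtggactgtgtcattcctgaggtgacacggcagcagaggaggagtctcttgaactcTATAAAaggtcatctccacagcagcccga
Cdhr5, chr7:141276787-141277036, minus strand: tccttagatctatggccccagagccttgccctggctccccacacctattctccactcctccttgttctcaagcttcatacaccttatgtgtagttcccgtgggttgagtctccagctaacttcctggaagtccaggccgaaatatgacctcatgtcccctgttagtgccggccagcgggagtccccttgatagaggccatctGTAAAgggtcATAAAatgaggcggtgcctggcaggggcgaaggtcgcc
The Vil1 window held none of the 4 motifs. The Krt20 window held TATAAA 29 bases before the start, overlapping a TTTAT match on the opposite strand, and another TTTAT 214 bases before it. In the Cdhr5 window, TTTAT and TTTAC were both matched on the opposite strand (printed as ATAAA and GTAAA), 38 and 48 bases before the start. Over the 11 windows of these 9 genes, TTTAT was found in 3 of 11 (Cdhr5, Espn and Krt20) and in 37.3% of 32851 promoters of the genome, TTTAC in 2 of 11 (Cdhr5 and Myo1a) and 28.3%, CAAAGTNCA in 0 of 11 and 1.19%, and TATAAA in 1 of 11 (Krt20) and 12.4%. These are matches of letters and not measured binding sites.

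After removal of barcodes with 500 or fewer genes or at least 25% mitochondrial UMIs, 3069 control cells (25687687 UMIs, median 4838 per cell) and 5555 knockout cells (48895126 UMIs, median 4749) were kept, of 9791 and 11838 barcodes. The libraries shared 3 kept barcodes. The targeted gene, Adipoq, had 1 UMI in the control library and 0 in the knockout library over all barcodes and 0 in the kept cells of both (at most 0.117 and 0.0614 CPM for 3 UMIs), so it could not check the labels. Absorptive cells made up 2064 of the control and 4131 of the knockout cells, and, pooled over the libraries, they were split into 5 zones of equal size by 11 landmark genes of the villus bottom and 9 of the villus top, none of them among the 10 genes. The remaining cells were named from markers as crypt-like (82 and 216 cells), goblet-like (225 and 409), tuft-like (76 and 62), enteroendocrine-like (55 and 57) and T cell-like (363 and 436, with a further 108 and 118 cycling), myeloid-like (62 and 32) and B or plasma-like (30 and 29), and an unnamed cycling cluster held 4 and 65 cells. The naming rule had no Paneth-like class, so no cluster could take that name. However, 7 of 9 Paneth cell markers were at least 2-fold higher in the goblet-like cluster, beside all 7 goblet cell markers, and 5 of 9 in the unnamed cycling cluster. The Paneth cell markers together were at 5269 CPM in control and 2799 CPM in knockout goblet-like cells, and these cells were not separated further.

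Along the villus, the brush border genes did not follow one course. Comparing the top zone with the bottom zone, 6 of the 10 genes (Espn, Cdhr2, Cdhr5, Krt8, Krt18 and Krt20) were at least 2-fold higher at the top in both libraries, against 15% of the 3415 genes that reached 50 CPM in the zone where they were higher. Only Krt19 of the 10 was at least 2-fold lower, against 46.3% of those genes. The remaining 3 were Vil1, Myo1a and Ezr.

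These levels are shares of a changing total. Cells of the top zone held a median of 3669 UMIs in the control library and 3570 in the knockout library, against 16197 and 17429 in the bottom zone, and mitochondrial genes took 18.8% and 18.6% of their UMIs against 7.45% and 6.69%. The median gene was lower in the top zone by a log2 difference of -0.94 in the control library and -0.91 in the knockout library, or -0.76 and -0.71 with the mitochondrial UMIs left out of the total. On either scale, 9 of the 10 genes lay above that median in both libraries, Krt19 being the exception. Of the 6195 absorptive cells, 1257 (20.3%) lay within 0.02 of a zone boundary on the score from 0 to 1.

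The courses also depended on which cells were kept. With a mitochondrial limit of 10% in place of 25%, 380 of the 2064 control and 859 of the 4131 knockout absorptive cells remained. The zones were redrawn over them. The redrawn top zone held a median of 9541 and 11386 UMIs, with Krt20 at 1364 and 1741 CPM. The top zone above held 3669 and 3570 UMIs, with Krt20 at 4602 and 4806 CPM. Krt20 is itself one of the 10 genes, and whether the redrawn top zone covers the same villus positions was not tested. The genes at least 2-fold higher at the top in both libraries were then Ezr, Espn, Cdhr2, Cdhr5 and Krt20, so that Krt8 and Krt18 left the group and Ezr joined it. Of 11 alternative settings, 5 gave the same 6 genes as above.

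**Figure D1:**
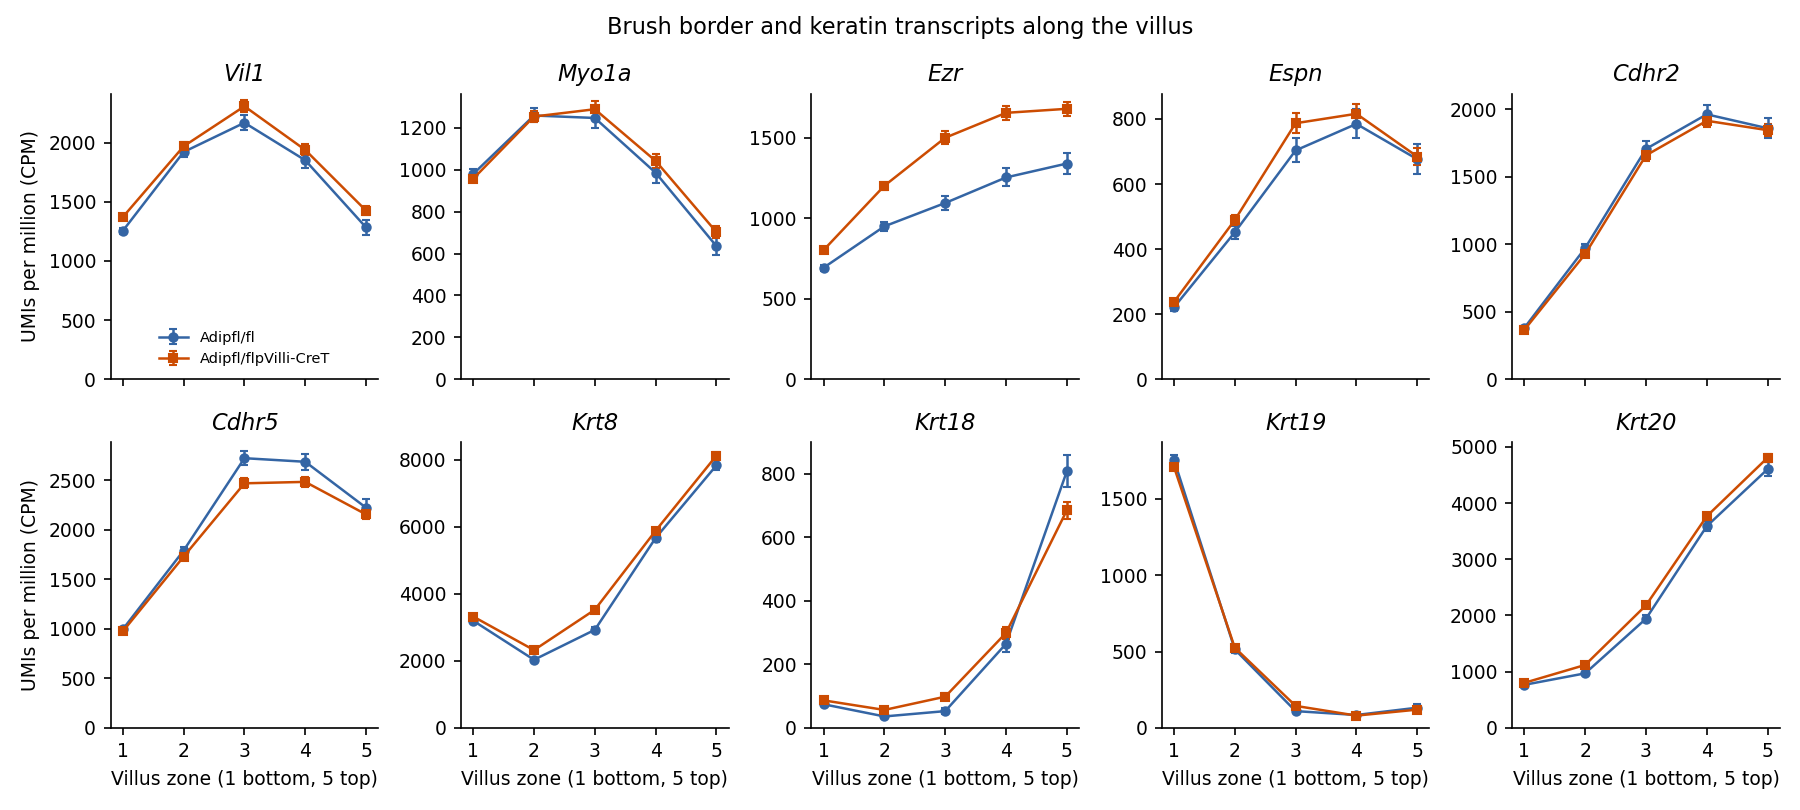
Level of each gene (UMIs per 1000000, linear axes from 0) in the 5 villus zones from bottom (1) to top (5), for the Adipfl/fl library (circles) and the Adipfl/flpVilli-CreT library (squares), with 95% counting intervals. Vil1 and Myo1a peak in mid villus, Krt19 is high at the bottom alone, Krt20 climbs from 765 to 4602 CPM in the control library, and Krt8 and Krt18 are lowest in zone 2.

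Vil1, the villin that bundles the actin core, was highest in the middle of the villus. In the control library its level from bottom to top was 1254, 1921, 2168, 1851 and 1283 CPM, and in the knockout library 1371, 1969, 2307, 1938 and 1425 CPM. The middle zone was 1.73-fold above the bottom in the control library (interval 1.67 to 1.79) and 1.68-fold in the knockout library (1.64 to 1.73), and the top zone returned to 0.592 and 0.618 of the middle. The ratio of top to bottom was 1.02 (0.970 to 1.08) in the control library and 1.04 (1.01 to 1.07) in the knockout library. With a mitochondrial limit of 10% it was 1.84 (1.71 to 1.98) and 1.56 (1.5 to 1.63), and under 3 other settings given in the closing section the direction turned in both libraries. Counted as molecules per cell, Vil1 went from 22.9 UMIs at the bottom to 5.17 at the top in the control library. In the knockout library it went from 28.0 to 5.60, along with the depth of the cells. Of the middle zone, 65.0% (control) and 52.1% (knockout) were cells of an absorptive cluster that reached 3 markers for no villus part. This unnamed absorptive cluster (542 and 683 cells) had a median of 3279 and 3202 UMIs, 21.1% and 20.8% of them mitochondrial in the sum. Its Vil1 level was 2258 and 2394 CPM.

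Myo1a, the motor that links the core to the membrane, had a similar course with a deeper decline toward the top. Its levels were 980, 1259, 1247, 986 and 636 CPM in the control library and 957, 1254, 1289, 1042 and 703 CPM in the knockout library. The top was thus 0.649 (0.603 to 0.698) and 0.734 (0.704 to 0.765) of the bottom. Between the zones redrawn at a mitochondrial limit of 10%, whose top zone had a higher median of UMIs, the sign was opposite. The log2 difference was there 0.57 in the control library and 0.34 in the knockout library, against -0.62 and -0.45 here. Across 11 named cell classes of both libraries (22 points), Myo1a was the gene with the profile closest to that of Vil1 among 6523 genes (Pearson r = 0.99 on log2 levels), followed by 2200002D01Rik (0.99) and Erich4 (0.97). The points share libraries and cell depth, and the values are given as a description.

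Ezr and Espn were higher toward the tip. Ezr, the ezrin that anchors actin to membrane proteins, was at 694, 951, 1096, 1255 and 1341 CPM in the control library and at 803, 1203, 1502, 1656 and 1681 CPM in the knockout library. It was higher in each zone than in the zone below it, with overlapping intervals for zones 4 and 5, and the top was 1.93-fold (1.83 to 2.04) and 2.09-fold (2.03 to 2.16) above the bottom, so that it missed the 2-fold limit in the control library alone. Espn, the espin that cross-links actin bundles, was at 221, 452, 703, 785 and 676 CPM in the control library and at 238, 489, 787, 816 and 685 CPM in the knockout library. It was highest in zone 4, and the top was 3.06-fold (2.81 to 3.32) and 2.88-fold (2.74 to 3.03) above the bottom. In cells thinned to 2000 UMIs, the share with an Espn UMI went from 32.3% at the bottom to 80.4% in zone 4 in the control library and from 37.3% to 79.4% in the knockout library.

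The protocadherins of the microvillus tips differed in how steeply they were graded. Cdhr2 was at 381, 973, 1707, 1964 and 1860 CPM in the control library and 367, 928, 1660, 1916 and 1846 CPM in the knockout library, a top-to-bottom ratio of 4.88 (4.62 to 5.16) and 5.04 (4.87 to 5.22). Its partner Cdhr5 was more abundant at the bottom and less graded, with 996, 1792, 2725, 2689 and 2225 CPM in the control library and 975, 1731, 2472, 2486 and 2157 CPM in the knockout library, a ratio of 2.23 (2.14 to 2.33) and 2.21 (2.15 to 2.27). In both libraries Cdhr2 was highest in zone 4, where Cdhr5 and Espn were also at or within a few percent of their highest level. Cdhr2 was close to constant as molecules per cell, with 6.95 UMIs at the bottom and 7.49 at the top in the control library and 7.49 and 7.26 in the knockout library.

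Krt8, the only type II keratin of the set, was the most abundant of the 10 genes in every zone and had a dip above the villus bottom. From bottom to top it was at 3196, 2030, 2924, 5665 and 7832 CPM in the control library and 3321, 2319, 3524, 5881 and 8123 CPM in the knockout library. The top was 2.45-fold above the bottom in both (2.39 to 2.51 and 2.41 to 2.48), and 3.86-fold and 3.50-fold above zone 2. Between the zones redrawn at a mitochondrial limit of 10%, whose top zone had a higher median of UMIs, the sign was opposite. The log2 difference between top and bottom was there -0.49 in the control library and -0.15 in the knockout library, against 1.29 in both here.

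Krt18 was scarce in most enterocytes and higher at the tip. Its levels were 74.2, 35.8, 52.6, 265 and 808 CPM in the control library and 86.5, 56.4, 98.1, 299 and 685 CPM in the knockout library. The top was 10.9-fold (9.81 to 12.1) and 7.92-fold (7.42 to 8.45) above the bottom and 22.5-fold and 12.2-fold above zone 2. With a mitochondrial limit of 10% the difference was far smaller, 1.87-fold (1.51 to 2.31) in the control library, below the 2-fold limit, and 2.38-fold (2.10 to 2.71) in the knockout library. After thinning to 2000 UMIs, 56.6% of control and 50.7% of knockout cells of the top zone had a Krt18 UMI, against 5.86% and 8.46% in zone 2 and 3.52% and 4.90% in T cell-like cells, which should lack keratin, so that the level in zone 2 was close to this background. The 9 markers of tuft cells, a cell type rich in Krt18, were together at 16.5 CPM in the top zone of the control library and 26.4 CPM in that of the knockout library, against 11692 and 10991 CPM in tuft-like cells, and 7 and 4 of the 9 had no UMI there. The part of tuft cell RNA in the Krt18 level was not tested.

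Krt19 and Krt20 had opposite courses. Krt19 was at 1757, 514, 110, 84.2 and 132 CPM in the control library and 1710, 525, 144, 80.1 and 119 CPM in the knockout library, so that the top held 0.0751 (0.0641 to 0.0875) and 0.0698 (0.0633 to 0.0767) of the bottom level. Krt20 was at 765, 970, 1941, 3588 and 4602 CPM in the control library and 800, 1119, 2179, 3764 and 4806 CPM in the knockout library, 6.01-fold (5.80 to 6.24) and 6.0-fold (5.87 to 6.14) higher at the top. With a mitochondrial limit of 10% both differences were smaller, the top holding 0.355 (0.328 to 0.383) and 0.318 (0.301 to 0.334) of the bottom level of Krt19 and 2.10-fold (1.93 to 2.27) and 2.35-fold (2.24 to 2.46) that of Krt20. As molecules per cell, Krt20 was also higher at the top, with 14 and 18.5 UMIs at bottom and top in the control library and 16.4 and 18.9 in the knockout library, although these cells held fewer UMIs in all. Krt19 went from 32.0 to 0.532 UMIs per cell in the control library and from 34.9 to 0.469 in the knockout library.

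The opposite courses were also compared as shares of the UMIs of Krt18, Krt19 and Krt20 together. At the villus bottom, Krt19 held 67.7% (67.0 to 68.3) of these UMIs in the control library and 65.8% (65.4 to 66.3) in the knockout library, and Krt20 held 29.5% and 30.8%. In zone 3 Krt20 held 92.3% and 90.0%, and at the top it held 83.0% (82.1 to 83.9) and 85.7% (85.2 to 86.1), with 14.6% and 12.2% from Krt18 and 2.38% and 2.13% from Krt19. Crypt-like cells were richer still in Krt19, with 82.1% and 76.8% Krt19 and 5.85% and 7.09% Krt20. The Krt20 share was 53.6 percentage points higher at the top than at the bottom in the control library and 54.8 points in the knockout library, and with a mitochondrial limit of 10% these values were 36.0 and 40.4 points. The sum of the type I keratins per Krt8 UMI varied far less, from 0.695 to 0.812 over the zones of the control library and from 0.687 to 0.782 over those of the knockout library.

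Both keratins were often found in the same cell at the villus bottom. Of the bottom-zone cells thinned to 2000 UMIs, 61.8% in the control library and 59.1% in the knockout library had UMIs of both Krt19 and Krt20, 19.9% and 18.5% of Krt19 alone, and 15.1% and 17.7% of Krt20 alone. Taken singly, Krt19 was found in 81.6% and 77.6% of these bottom-zone cells and Krt20 in 76.9% and 76.8%. Whether they occurred together beyond these shares was not tested. Every thinned cell of the top zone had a Krt20 UMI. Thus 0 of 304 and 0 of 872 cells had Krt19 alone there, and the 17.8% and 14.9% with both were all cells with a Krt19 UMI. T cell-like cells, which should have neither, had a Krt19 UMI in 3.81% and 5.67% of thinned cells and a Krt20 UMI in 14.4% and 20.9%. Over the 22 class values, the profiles nearest to Krt19 were those of Elovl7 (r = 0.96), Ptprk (0.95) and Noxo1 (0.94), and those nearest to Krt20 were Samd8 (0.98), Slc3a1 (0.96) and Lmo7 (0.95), again as a description.

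**Figure D2:**
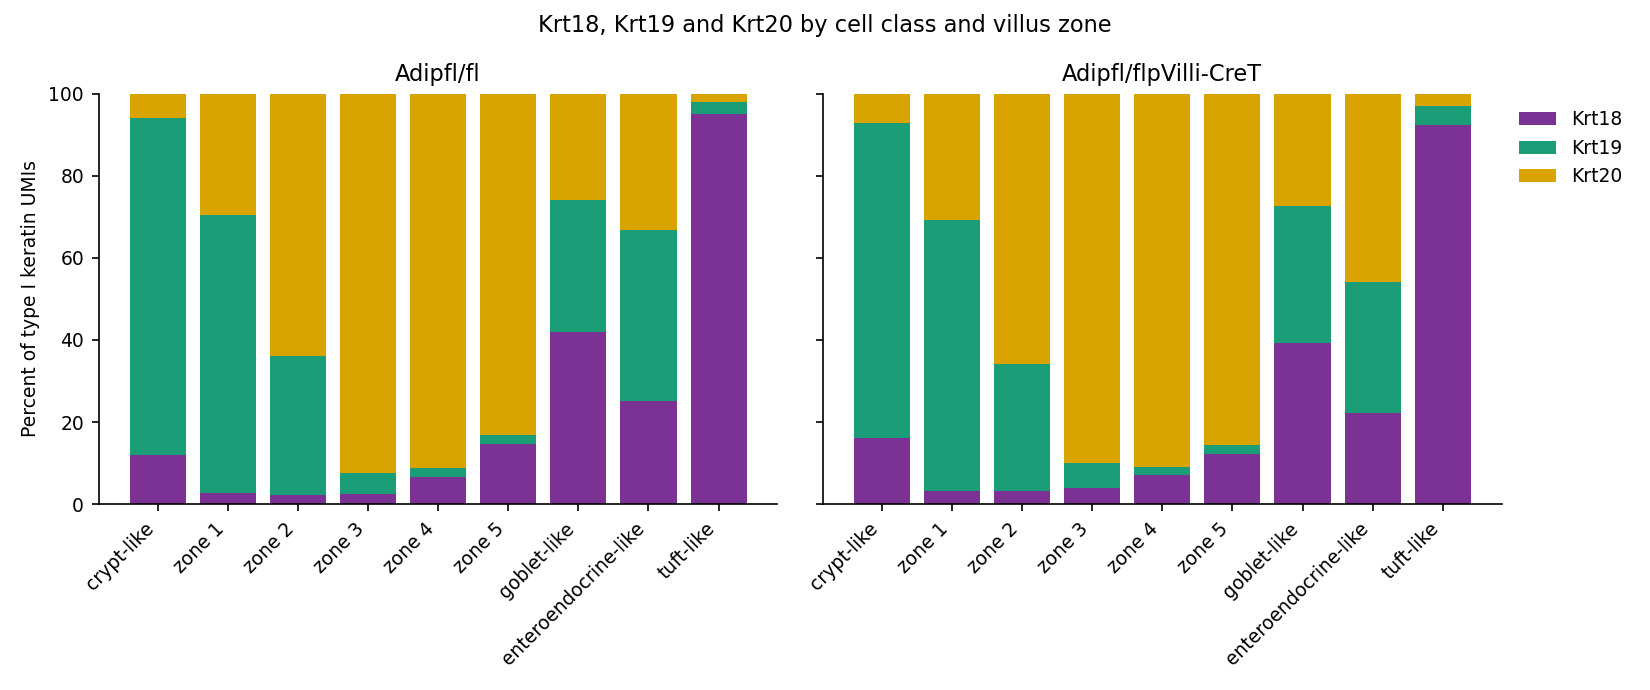
Share of each gene in the UMIs of the type I keratins Krt18, Krt19 and Krt20 (percent, stacked to 100) in crypt-like cells, the 5 villus zones and the secretory classes of each library. Krt19 holds 82.1% in control crypt-like cells, Krt20 83.0% in the top zone and Krt18 95% in tuft-like cells.

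In tuft cells, chemosensory cells with a blunt tuft of long microvilli on thick actin rootlets, Krt18 and Krt8 were higher than in pooled absorptive cells. Krt18 was at 12677 CPM in control and 10042 CPM in knockout tuft-like cells, 94.3-fold (90.0 to 98.8) and 60.4-fold (58.3 to 62.6) above all absorptive cells, and it held 95% and 92.4% of the type I keratin UMIs. Krt8 was at 8530 and 8127 CPM, 2.48-fold and 2.08-fold above all absorptive cells. Absorptive cells of the top villus zone alone, however, held 7832 and 8123 CPM of Krt8. Krt18 and Krt8 alone of the 10 genes were at least 2-fold above pooled absorptive cells in both libraries, where 15.7% of 3665 genes were. Type I keratins outnumbered Krt8 in tuft-like cells, with 1.57 and 1.34 UMIs per Krt8 UMI.

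Espn was 2.41-fold (2.21 to 2.61) and 1.98-fold (1.83 to 2.15) higher in tuft-like than in pooled absorptive cells, at 1027 and 893 CPM, just short of the limit in the knockout library. Absorptive cells of zone 4 alone held 785 and 816 CPM of Espn, and the unnamed absorptive cluster 794 and 885 CPM. Cdhr5 was at 2817 and 2180 CPM (1.69-fold and 1.40-fold) and Cdhr2 at 1066 and 929 CPM (1.11-fold and 1.00-fold). Absorptive cells of the middle villus zone alone held 2725 and 2472 CPM of Cdhr5 and 1707 and 1660 CPM of Cdhr2. In tuft-like cells Vil1 was at 946 and 1009 CPM, 0.592 and 0.611 of the pooled absorptive level. Krt19 was at 0.4 and 0.492 of that level, Krt20 at 0.192 and 0.198, and Ezr, with 344 and 431 CPM, at 0.378 and 0.380. In tuft-like barcodes, 11 enterocyte markers, summed, were at 11620 and 12227 CPM, against 18958 and 17720 CPM in absorptive cells. Of these 11, 1 was at least 2-fold higher in the tuft-like cluster than in the other cells. How much of this RNA came from enterocytes was not tested. Per UMI of those markers, relative to pooled absorptive cells, Vil1 was at 0.967 and 0.886 in tuft-like cells and Ezr at 0.617 and 0.551. In tuft-like cells the values were 3.92 and 2.87 for Espn, 2.76 and 2.03 for Cdhr5, and 1.82 and 1.45 for Cdhr2. They were 4.05 and 3.02 for Krt8, and 154 and 87.5 for Krt18. A value of 1 is what RNA in the pooled proportions gives, but absorptive classes themselves differed from it. Krt8 was at 0.344 and 0.332 in mid villus-like and at 4.81 and 3.96 in villus tip-like cells.

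Goblet cells, which secrete mucus, shared part of the keratin pattern. Krt18 was at 1880 and 1655 CPM in goblet-like cells, 14-fold (13.3 to 14.7) and 9.96-fold (9.60 to 10.3) above pooled absorptive cells. Absorptive cells of the top villus zone alone, however, held 808 and 685 CPM of Krt18. No other gene of the 10 was 2-fold higher than in pooled absorptive cells in both libraries, against 7.93% of 3165 genes. The type I keratins of goblet-like cells were mixed, with 42.0% and 39.3% Krt18, 32.1% and 33.3% Krt19, and 25.8% and 27.4% Krt20. Enteroendocrine-like cells, which release hormones, had Krt18 at 790 and 648 CPM and Krt19 at 1296 and 931 CPM. Vil1 in these cells was at 370 CPM in the control library and 682 CPM in the knockout library, but their enterocyte markers were at 3323 and 7177 CPM, and per UMI of those markers Vil1 was at 1.32 and 1.02 of the absorptive value.

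**Figure D3:**
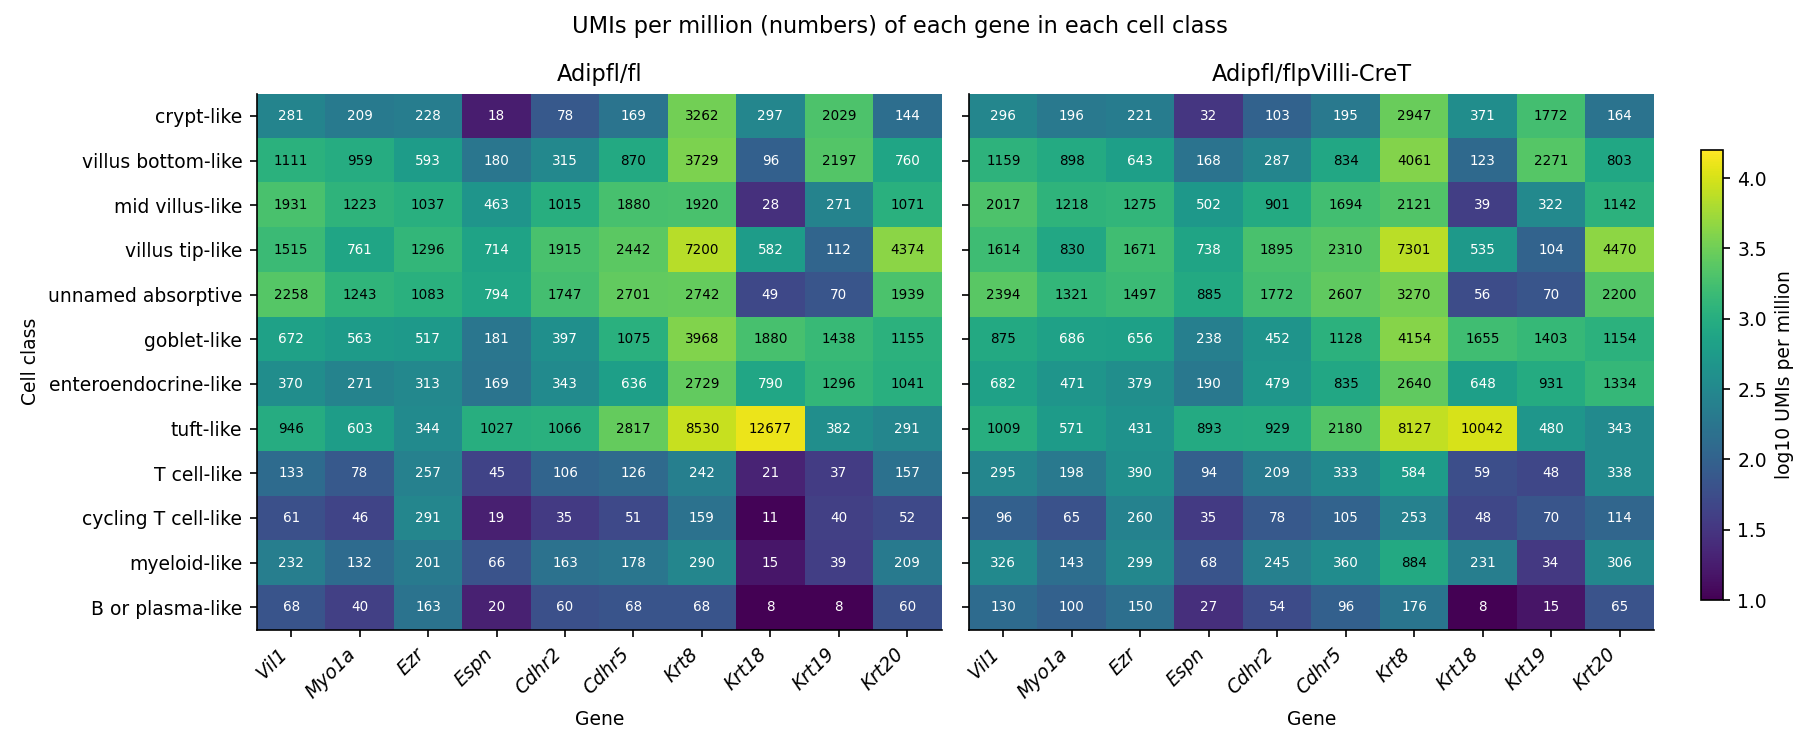
Level of each gene (numbers and colour: UMIs per 1000000, colour on a log10 scale) in 12 cell classes of the Adipfl/fl library (left) and the Adipfl/flpVilli-CreT library (right). Krt18 reaches 12677 CPM in control tuft-like cells, Krt19 lies near 2000 CPM in crypt-like and villus bottom-like cells, and the actin-core genes are low in crypt-like and immune classes.

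From crypt to villus bottom, most of the microvillus genes differed in level. In crypt-like cells, 7 of the 10 genes (Vil1, Myo1a, Ezr, Espn, Cdhr2, Cdhr5 and Krt20) were at least 2-fold lower than in villus bottom-like cells in both libraries, against 13.4% of 3904 genes. Vil1 was at 0.253 (0.233 to 0.274) of the villus bottom level in the control library and 0.256 (0.243 to 0.269) in the knockout library, Myo1a at 0.218 in both, and Cdhr5 at 0.194 and 0.233. Espn had the lowest ratio in both libraries, 0.100 and 0.193, and in thinned cells an Espn UMI was found in 3.66% and 5.12% of crypt-like cells against 4.4% and 10.6% of T cell-like cells, so that by this measure it was not detectable above background. Cdhr2 (78.0 and 103 CPM) and Krt20 (144 and 164 CPM) were also no higher in crypt-like than in T cell-like cells (106 and 209 CPM, and 157 and 338 CPM). Counted as UMIs per cell, however, crypt-like cells, which were deeper, held more than T cell-like cells, by 2.38-fold and 1.95-fold for Espn, 4.33-fold and 2.79-fold for Cdhr2 and 5.41-fold and 2.74-fold for Krt20. Ezr was at 0.384 and 0.343 of the villus bottom level, and at 0.887 (0.781 to 1.01) and 0.567 (0.517 to 0.621) of the T cell-like level. Cycling T cell-like cells held 291 and 260 CPM of Ezr. Their 11 enterocyte markers were together at 430 and 622 CPM, against 857 and 2722 CPM in T cell-like cells. Whether the Ezr level of T cell-like cells was background was not tested. Relative to T cell-like cells, Myo1a was at 2.69 and 0.991 and Cdhr5 at 1.34 and 0.585. On this scale neither was thus above background in the knockout library. As UMIs per cell, Ezr, Myo1a and Cdhr5 were all higher in crypt-like than in T cell-like cells in both libraries. Krt8 and Krt19 were closer to their villus bottom levels. Krt8 was at 3262 and 2947 CPM in crypt-like cells (ratios of 0.875 and 0.726) and Krt19 at 2029 and 1772 CPM (0.923 and 0.780). Krt18 was instead higher in crypt-like cells, by 3.09-fold (2.76 to 3.45) and 3.01-fold (2.82 to 3.22).

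Since Cre is driven by the villin promoter, Vil1 was compared between crypt cells and cells that should lack it. Crypt-like cells held 652 Vil1 UMIs in the control library, or 281 CPM (260 to 304), and 1634 in the knockout library, or 296 CPM (282 to 311). T cell-like cells, which should lack villin, held 133 CPM (116 to 151) and 295 CPM (271 to 320). On this scale Vil1 in crypt-like cells was 2.12-fold (1.82 to 2.47) above T cell-like cells in the control library and 1.00-fold (0.913 to 1.11) in the knockout library, so no excess was detectable in the latter.

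That ratio depended on the scale and on the cells kept. Crypt-like cells had a median of 19432 and 21014.5 UMIs against 4588 and 3992.5 in T cell-like cells, and counted as molecules per cell Vil1 was at 7.95 and 7.56 UMIs in crypt-like cells and at 0.639 and 1.33 in T cell-like cells, a ratio of 12.4 and 5.70. Without the barcodes of highest doublet score the ratio of CPM was 4.13 and 1.65, and with a mitochondrial limit of 10% it was 3.56 and 2.60. After thinning to 2000 UMIs, 35.4% (25.1 to 46.7) of control and 36.7% (30.3 to 43.6) of knockout crypt-like cells had a Vil1 UMI, against 13.8% (10.3 to 17.9) and 20.9% (16.9 to 25.3) of T cell-like cells. Without thinning, the shares were 93.9% and 94.4% against 23.1% and 31.0%.

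The T cell-like cells of the knockout library also carried more epithelial RNA of other kinds. The 11 enterocyte markers were at 857 CPM in control and 2722 CPM in knockout T cell-like cells, and 7 goblet cell markers at 305 and 4127 CPM, while in crypt-like cells the enterocyte markers were at 1223 and 1309 CPM. Per UMI of the enterocyte markers, relative to absorptive cells, Vil1 was at 2.73 and 2.43 in crypt-like cells and at 1.84 and 1.16 in T cell-like cells. Crypt-like cells thus had more Vil1 per enterocyte marker than T cell-like cells in both libraries, 1.48-fold and 2.09-fold.

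Crypt-like cells were not uniform. When they were clustered once more, sub-cluster 0 (37 and 109 cells) held most of the stem cell markers, with 10 of 11 at least 2-fold above the other crypt-like cells, but also 5 goblet and 5 Paneth cell markers. In it the Paneth cell markers together were at 60.0 CPM in the control and 791 CPM in the knockout library, and 5 fibroblast markers had 0 UMIs in the control library and 658 UMIs (247 CPM) in the knockout library. Its Vil1 level was 206 CPM (178 to 236) and 219 CPM (202 to 238). Sub-cluster 1 (36 and 75 cells), led by Mgat4c and Reg1, held 338 CPM (306 to 372) and 398 CPM (373 to 424). Sub-cluster 2 was small (9 and 32 cells) and held 307 CPM (216 to 422) and 230 CPM (190 to 276). Vil1 was thus lower in sub-cluster 0 than in sub-cluster 1 in both libraries. T cell-like cells held 133 and 295 CPM. In the knockout library sub-clusters 0 and 2 were therefore below that background on this scale, with overlapping intervals for sub-cluster 2, and sub-cluster 1 was above it. The scale matters, since sub-clusters 0 and 2 had medians of 18381 and 15221.5 UMIs there, against 3992.5 in T cell-like cells. As counts they held 583 Vil1 UMIs in 109 cells and 117 in 32 cells, against 579 in 436 T cell-like cells. The share of Krt18 in the type I keratin UMIs was instead highest in sub-cluster 0, with 23.2% and 29.98% against 7.86% and 10.05% in sub-cluster 1 and 4.67% and 6.69% in sub-cluster 2. Per enterocyte marker UMI and relative to absorptive cells, Vil1 was at 4.16 and 3.31 in sub-cluster 0 and at 2.36 and 2.07 in sub-cluster 1.

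Over all classes, the order of Vil1 levels in the control library was unnamed absorptive (2258 CPM), mid villus-like (1931), villus tip-like (1515), villus bottom-like (1111), tuft-like (946), goblet-like (672), enteroendocrine-like (370), crypt-like (281), myeloid-like (232), unnamed cycling (159, from 11 UMIs in 4 cells), T cell-like (133), B or plasma-like (67.7) and cycling T cell-like (60.7). Neighbours whose counting intervals overlapped were crypt-like and myeloid-like cells, the unnamed cycling cells and both of their neighbours, and B or plasma-like and cycling T cell-like cells. In the knockout library the order was the same down to enteroendocrine-like cells (682 CPM), followed by unnamed cycling (539), myeloid-like (326), crypt-like (296), T cell-like (295), B or plasma-like (130) and cycling T cell-like (95.8) cells. The intervals of myeloid-like, crypt-like and T cell-like cells overlapped there, as did those of the last pair. Vil1 was thus highest in absorptive classes and lowest in cycling T cell-like and B or plasma-like cells in both libraries.

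**Figure D4:**
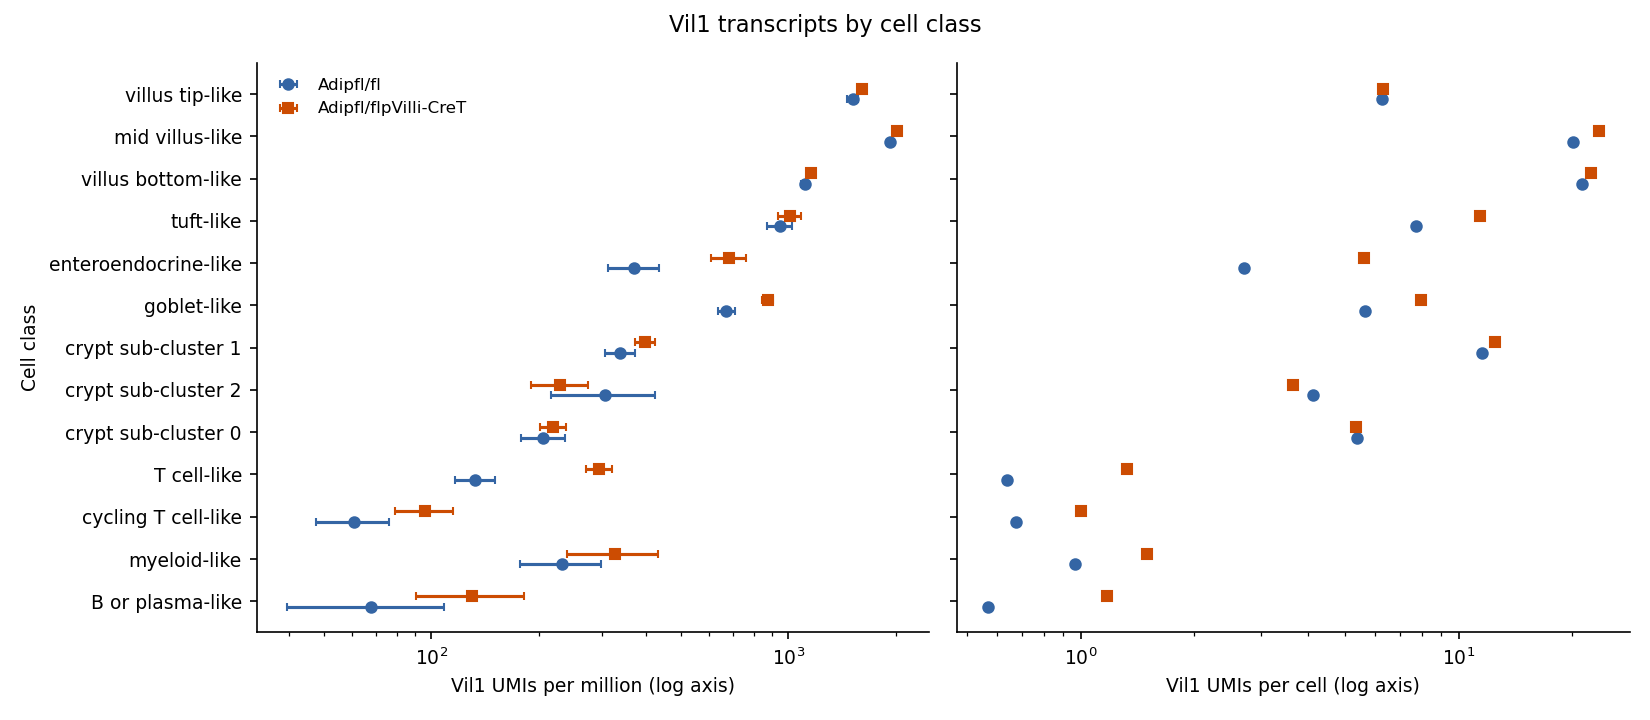
Vil1 level by cell class on log axes, as UMIs per 1000000 with 95% counting intervals (left) and as UMIs per cell (right), for the Adipfl/fl library (circles) and the Adipfl/flpVilli-CreT library (squares). Knockout T cell-like cells reach the level of crypt-like cells per 1000000 UMIs (295 and 296) but not per cell (1.33 and 7.56).

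Between the genotypes, none of the 10 genes was at least 1.5-fold different in one direction in every zone, against 0.489% of the 1635 genes that reached 50 CPM in either library in every zone. Genotype and library cannot be told apart here. Of the 10, Ezr had the highest median ratio over the zones, as it did in 7 of the 11 alternative settings, while Krt18 was above it in the others. Ezr was higher in the knockout library by 1.16-fold (1.12 to 1.2) at the bottom, 1.27-fold (1.22 to 1.31), 1.37-fold (1.30 to 1.44) and 1.32-fold (1.25 to 1.39) in zones 2 to 4, and 1.25-fold (1.19 to 1.32) at the top. The median gene of each zone had a ratio between 1.01 and 1.04. Ezr was also higher in knockout goblet-like cells (1.27-fold, 1.18 to 1.37) and tuft-like cells (1.25-fold, 1.05 to 1.5), while in crypt-like cells the ratio was 0.970 (0.875 to 1.08). Markers of other cells differed between the libraries as well, both where Ezr was higher and where it was not. The 7 goblet cell markers were at 850 and 3583 CPM in crypt-like cells. In cycling T cell-like cells they were at 181 and 7781 CPM, with an Ezr ratio of 0.892 (0.764 to 1.04). In goblet-like cells the enterocyte markers were at 5025 CPM in the control and 7101 CPM in the knockout library. Vil1 (1.30-fold), Espn (1.32-fold), Myo1a (1.22-fold), Cdhr2 (1.14-fold) and Krt8 (1.05-fold) were higher there too. Cdhr5 (1.05), Krt19 (0.976) and Krt20 (1.00) had ratios whose intervals held 1, and Krt18 was at 0.880 (0.844 to 0.918). Ratios in goblet-like cells are also shares of a changing total, since the 7 goblet cell markers took 326083 CPM there in the control and 266359 CPM in the knockout library. The 7 goblet cell markers were at 484 and 4738 CPM in tuft-like cells, and at 235 to 514 CPM over the control zones against 1042 to 1852 CPM over the knockout zones. Their part in the Ezr difference was not tested.

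Of the remaining genes, 8 had zone ratios between 0.904 and 1.31. Vil1 was higher in the knockout library by 1.03-fold to 1.11-fold over the zones, Krt8 by 1.04-fold to 1.21-fold, Krt20 by 1.04-fold to 1.15-fold and Espn by 1.01-fold to 1.12-fold. Cdhr5 was lower, with ratios of 0.907 to 0.979, as was Cdhr2, with 0.954 to 0.992, although for Cdhr2 the interval lay below 1 in 1 zone alone and the median ratio of both turned with a mitochondrial limit of 10%. Myo1a (0.977 to 1.11) and Krt19 (0.904 to 1.31) had ratios on both sides of 1. Krt18 varied most, with 1.57-fold (1.30 to 1.90) in zone 2, 1.86-fold (1.5 to 2.33) in zone 3 and 0.848 (0.788 to 0.913) at the top.

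In T cell-like cells, the ratios of the knockout over the control library ran from 1.31 for Krt19, whose interval of 0.941 to 1.82 holds 1, to 2.84 for Krt18. The share of all genes that were higher in knockout T cell-like cells is not given here. Myo1a was 2.54-fold, Cdhr5 2.64-fold and Vil1 2.22-fold higher there, beside the difference in enterocyte and goblet cell markers given above. Ezr had the smallest difference but Krt19 (1.52-fold, 1.35 to 1.71), and was at 257 and 390 CPM in T cell-like cells, where Krt8 was at 242 and 584 CPM. In cycling T cell-like cells the Ezr ratio was 0.892 (0.764 to 1.04). The ratios of the other genes there ran from 1.42 for Myo1a (0.994 to 2.04) to 4.43 for Krt18. A UMI of Ezr was found in 38.7% and 43.0% of thinned T cell-like cells and one of Krt8 in 21.4% and 32.5%, and each of the other 8 genes was found in fewer cells than these. Per UMI of the enterocyte markers Ezr was at 6.24 and 2.24 of the absorptive value in T cell-like cells. The part of such RNA in the differences between the libraries was not tested.

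**Figure D5:**
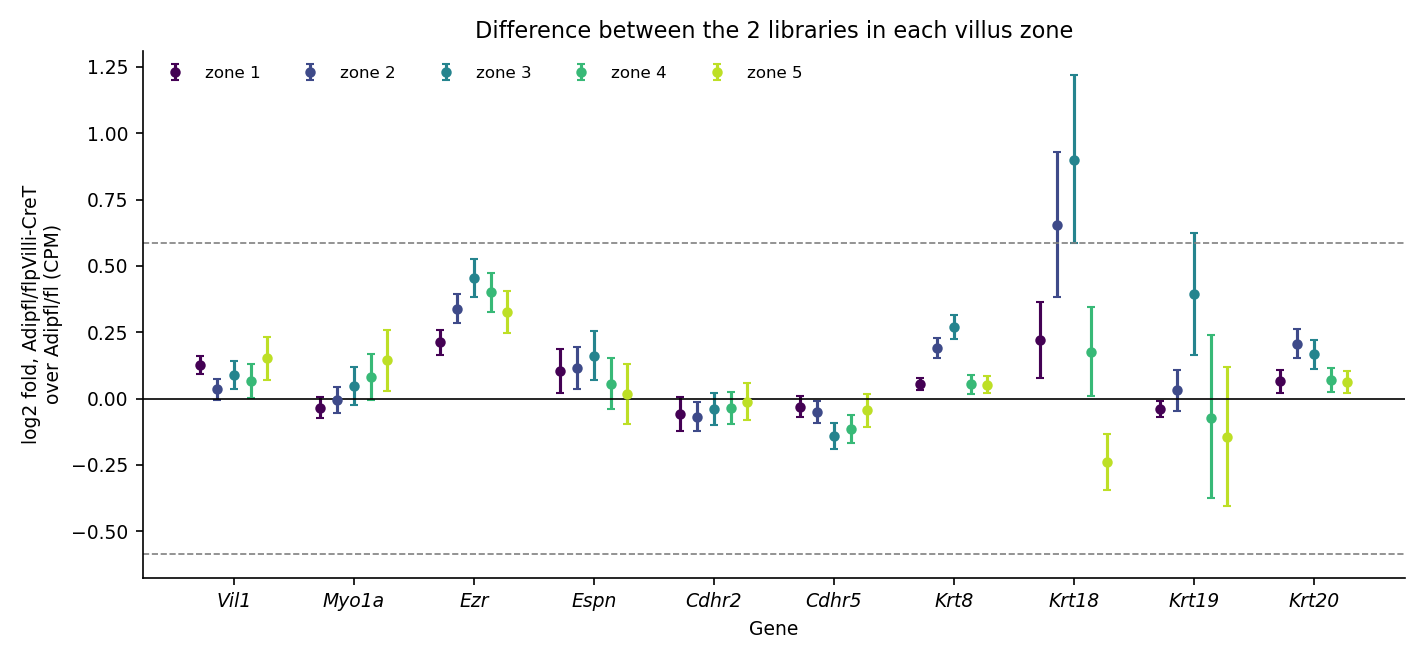
Log2 ratio of the Adipfl/flpVilli-CreT library over the Adipfl/fl library for each gene in villus zones 1 to 5, with 95% counting intervals. Dashed lines mark 1.5-fold in either direction, and Ezr lies above 0 in all 5 zones, between 1.16-fold and 1.37-fold.

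A further 41 genes of the brush border and its cytoskeleton were listed by role. Between top and bottom zone, 8 were at least 2-fold higher at the top in both libraries, 5 were lower, 16 were neither, and 12 were below 50 CPM, where 15% of all tested genes were higher and 46.3% lower. The higher group held most of the genes for growth and membrane shape, 5 of 8, among them Eps8 (2.08-fold and 2.39-fold), Eps8l2 (2.97-fold and 2.91-fold) and Eps8l3 (6.75-fold and 5.78-fold), which encode actin regulators of the Eps8 family, Baiap2l1 (2.16-fold and 2.43-fold), and the adhesion gene Tmigd1 (9.42-fold and 8.31-fold). The cytolinkers Plec (7.36-fold and 7.04-fold) and Dsp (4.96-fold and 4.70-fold), which tie keratins to other structures and to desmosomes, were higher too, as was the motor Myo1e (4.98-fold and 5.61-fold). Tmigd1 was higher in the middle zone than at the top. From bottom over middle to top it was at 17.2, 323 and 162 CPM in the control library and 36.5, 451 and 303 CPM in the knockout library.

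The 5 lower genes came from several roles. Calml4, the calmodulin-like light chain of the tip adhesion complex, was at 0.311 and 0.293 of its bottom level, while the other members of that complex (Ush1c, Anks4b and Myo7b) were not 2-fold different in both libraries. The motors Myo1d (0.312 and 0.244) and Myo5b (0.493 and 0.443), the membrane-shaping gene Baiap2l2 (0.202 and 0.232) and the keratin Krt7 (0.328 and 0.279) were also lower. Of the actin bundlers, only Pls1 reached 50 CPM in absorptive cells, at 3019 and 3849 CPM in the middle zone against 1774 and 1918 CPM at the bottom and 1296 and 1819 CPM at the top. Between the genotypes, 0 of the 25 listed genes that reached 50 CPM in every zone were 1.5-fold different in one direction in every zone, against 0.489% of all tested genes.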

How the data were processed

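Small intestinal epithelial cells of each genotype gave 1 library with the 10x Genomics 3′ kit. After conversion of the reads with bcl2fastq 5.0.1, the authors obtained UMI tables from Cell Ranger (version 7.1.0 per the file headers) on mm10, and the deposited values are raw UMI counts per gene and barcode, without normalization and before the quality filter. Each UMI stands for a molecule, so no length correction was applied.

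Barcodes with more than 500 genes and less than 25% mitochondrial UMIs were kept, as the study's methods state. This filter left 3069 control and 5555 knockout cells, well below the numbers that the study describes, and the reason was not found. Of the barcodes with more than 500 genes, the mitochondrial limit removed 4670 in the control and 4263 in the knockout library. Clusters were made with Seurat 5.3.0 in R 4.3.3 (LogNormalize, scale factor 10000, 2000 variable genes less 9 of the genes reported or listed here, 20 principal components, Louvain resolution 0.8). A cluster was named when at least 3 markers (5 for crypt or cycling cells) were 2-fold higher there with at least 10 UMIs, and these thresholds were set once the clusters' markers had been seen. Paneth cell and fibroblast markers were counted but could not name a cluster. Absorptive cells were ranked by the share of top landmarks among landmark signal and cut into 5 zones. Doublets were not removed. Levels are UMIs summed over cells per 1000000 UMIs, with exact Poisson, conditional binomial or Clopper-Pearson 95% intervals, computed in Python 3.11.15 with scipy 1.17.1 and scanpy 1.11.5. The background was every gene reaching 50 CPM in the group where it was higher. With 1 library per genotype no p-value was computed. Intervals cover counting error only, and UMIs were thinned to 2000 per cell for shares, leaving out shallower cells.

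The genes and lists were chosen with earlier results of these data known. All 10 genes are named, and of the 41 listed genes those past 2-fold. Pls1 and the unchanged members of the tip adhesion complex were named after their values were seen. The sub-clusters of crypt-like cells, the ratio to enterocyte markers and UMIs per cell were also chosen after seeing the data. Calculations were tested on simulated data. Alternatives changed the filters, resolution, variable genes, doublets, denominator, cell weights, zones and thinning.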

Additional observations from a re-analysis of the deposited data

Results flagged for a closer look

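The 10 genes also had UMIs in barcodes that the mitochondrial limit removed and that entered no comparison. Per 1000000 UMIs that are not mitochondrial, the 10 genes together were at 17172.1 in 4670 such barcodes of the control library (interval 17085.5 to 17259.1) and at 19311.9 in 4263 of the knockout library (19215.5 to 19408.7), against 11935.3 and 13100.0 in the kept cells. Cdhr2 was at 1930 and 1958 there against 784 and 807 in kept cells, Vil1 at 2471 and 2496 against 1296 and 1444, and Krt20 at 2538 and 3080 against 1256 and 1510. Krt19 was lower in the removed barcodes than in all kept cells together, at 242 and 237 against 1057 and 1141. So was Krt18, at 188 and 266 against 638 and 489. The kept cells mix classes, and per 1000000 of all UMIs Krt18 was at 12677 and 10042 in tuft-like but at 134 and 166 in absorptive cells. The removed barcodes were not assigned to classes in the main clustering, and whether their mix of classes differed was not tested.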

How the results depend on the processing

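No paired analysis was possible because each genotype has 1 library. Over 11 alternatives, the count of genes at least 2-fold higher at the villus top stayed between 5 and 7, that of lower genes at 1 and that of genotype differences at 0, although the 6 higher genes were the same in 5 of the 11 alone. Ezr was among them in 4 (the 10% limit, more than 1000 genes per cell, mitochondrial UMIs left out, zones from clusters), Krt8 left at the 10% limit and with zones from clusters, Krt18 at the 10% limit, and Cdhr5 with the 13 protein-coding genes and with cells weighted equally. Of 396 single-gene values, 228 stayed within their counting interval, 151 moved further without a change of sign, and 17 changed sign, 9 of them from a value whose interval lay on one side of 0. With a mitochondrial limit of 10%, the zones were redrawn over the cells left. The log2 top-to-bottom difference of Myo1a was then 0.57 (control) and 0.34 (knockout), and that of Krt8 -0.49 and -0.15. The median log2 genotype ratio was 0.0163 for Cdhr5 and 0.0199 for Cdhr2 at this limit. That of Cdhr2 was 0.0421 with the 13 genes and 0.0420 with zones set within each library. The knockout top-to-bottom log2 of Vil1, 0.06 as reported, was -0.17 with 13 protein-coding mitochondrial genes, -0.0116 without high doublet scores and -0.0268 with cells weighted equally, and that of the control library, 0.03 as reported, was -0.23, -0.0177 and -0.0865. The median log2 genotype ratio of Myo1a was -0.0133 with zones set within each library and -0.00539 with zones from clusters. The median log2 genotype ratio of Krt19 was 0.0479 with zones taken from clusters. The cause was not tested.

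The Krt20 share was higher at the top by 36.0 points (control) and 40.4 (knockout) at the 10% limit, 51.2 and 52.5 with the 13 genes, 56.6 in both with more than 1000 genes per cell, 51.2 and 52.5 without high doublet scores, 52.0 (control) with cells weighted equally, 55.0 (control) with zones set within each library, and 61.4 and 62.4 with zones from clusters. The ratio of Vil1 in crypt-like to T cell-like cells was 3.56 and 2.60 at the 10% limit, 1.31 (knockout) with the 13 genes, 1.75 and 1.45 at resolution 0.4, 1.15 (knockout) with all variable genes, 4.13 and 1.65 without high doublet scores, 2.59 and 1.66 with equal weights, and 12.4 and 5.70 as UMIs per cell. The share of crypt-like cells with a Vil1 UMI was 93.9% and 94.4% without thinning. With 1 library per genotype and 82 control crypt-like cells, spread between animals could not be measured.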
